A study of Mus musculus with 24 samples.

Results

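Chemokines are secreted proteins that direct the migration of leukocytes, and 10 of their genes were followed here in MIN6 cells, a mouse insulinoma line with β cell features. The genes were taken by name, as the rows of the count table whose symbol was Cxcl1, Cxcl2, Cxcl9, Cxcl10, Cxcl11, Ccl2, Ccl5, Ccl7, Ccl20 or Cx3cl1, and all 10 were among the 17696 genes listed. The RNA-seq libraries formed 6 groups of 4. Scr cells carried a lentiviral vector with a scrambled sequence, ZIP cells carried a vector with anti-sense miR-146a-5p, and OE cells carried a vector overexpressing miR-146a-5p. Each line was sequenced without cytokines and after 24 h with a mixture of IFNγ (100 ng/ml), TNFα (10 ng/ml) and IL-1β (5 ng/ml), the treated groups being Scr+Cy, ZIP+Cy and OE+Cy. All lines had been selected with puromycin and expanded from single clones. Scr and ZIP shared a vector with copGFP, whereas the OE vector carried Turbo RFP, so that line, clone and, for OE, vector cannot be told apart. The level of mature miR-146a-5p is not part of these data, and nothing in the labels says that the 4 libraries of a group came from separate cultures, so the p values measure the spread between these libraries, which may be technical.

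CXCL9, CXCL10 and CXCL11 are ligands of CXCR3, a receptor of activated T cells, and their genes are textbook targets of IFNγ, acting in part through IRF1. CXCL1 and CXCL2 bind CXCR2 on neutrophils, CCL2 and CCL7 bind CCR2 on monocytes, CCL5 attracts T cells and monocytes, and CCL20 is the ligand of CCR6. These genes are known to respond to IL-1β and TNFα through NF-κB. CX3CL1 differs from the rest in being made as a membrane-anchored protein, which ADAM10 and ADAM17 can release. Chemokines made by β cells are known from inflamed islets in type 1 diabetes.

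The sequences below are those of the microRNA that the lines were built to alter and of the promoters of members whose responses are described in full. The mature miR-146a-5p (RefSeq, GRCm38.p6, chr11:43374435-43374456, minus strand) is printed with its seed, bases 2 to 8, in capitals. Its perfect seed match, AGTTCTC, was found in the annotated 3′ untranslated regions of 0 of the 10 members, compared with 11.2% of 21007 genes.
miR-146a-5p: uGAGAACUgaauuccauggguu
Promoters cover 250 bases before and 50 bases after the start of transcription. The RefSeq table held those of 6 members (Cxcl1, Cxcl2, Cxcl9, Cxcl10, Ccl20 and Cx3cl1). Motifs of 3 kinds were searched on both strands and are shown in capitals where they occur, namely the interferon-stimulated response element core GAAANNGAA, the gamma-activated site TTCNNNGAA and the NF-κB consensus.
Cxcl9, chr5:92328030-92328329, strand -: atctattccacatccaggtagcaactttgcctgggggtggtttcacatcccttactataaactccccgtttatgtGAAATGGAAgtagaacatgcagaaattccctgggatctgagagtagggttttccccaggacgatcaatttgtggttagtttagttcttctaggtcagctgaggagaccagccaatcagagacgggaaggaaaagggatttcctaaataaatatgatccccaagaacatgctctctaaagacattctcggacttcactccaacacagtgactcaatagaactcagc
Cxcl10, chr5:92348840-92349139, strand -: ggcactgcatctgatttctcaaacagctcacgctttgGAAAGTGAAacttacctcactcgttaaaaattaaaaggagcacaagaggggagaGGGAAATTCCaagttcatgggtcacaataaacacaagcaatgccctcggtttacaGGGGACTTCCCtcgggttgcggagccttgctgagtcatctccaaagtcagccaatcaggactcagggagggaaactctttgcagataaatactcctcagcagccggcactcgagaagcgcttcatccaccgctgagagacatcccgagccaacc
Cxcl1, chr5:90890995-90891294, strand +: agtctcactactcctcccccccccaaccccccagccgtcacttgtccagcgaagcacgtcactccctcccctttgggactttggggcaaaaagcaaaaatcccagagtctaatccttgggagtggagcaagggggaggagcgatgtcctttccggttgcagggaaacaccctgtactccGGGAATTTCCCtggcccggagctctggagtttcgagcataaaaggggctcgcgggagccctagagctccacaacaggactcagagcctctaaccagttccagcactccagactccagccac
Ccl20, chr1:83116516-83116815, strand +: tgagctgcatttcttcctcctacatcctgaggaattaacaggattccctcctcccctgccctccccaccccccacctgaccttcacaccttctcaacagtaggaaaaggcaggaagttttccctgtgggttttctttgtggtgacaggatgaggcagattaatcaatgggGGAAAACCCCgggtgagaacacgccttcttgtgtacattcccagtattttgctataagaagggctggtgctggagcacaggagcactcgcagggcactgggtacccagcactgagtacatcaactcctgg
Cx3cl1, chr8:94771930-94772229, strand +: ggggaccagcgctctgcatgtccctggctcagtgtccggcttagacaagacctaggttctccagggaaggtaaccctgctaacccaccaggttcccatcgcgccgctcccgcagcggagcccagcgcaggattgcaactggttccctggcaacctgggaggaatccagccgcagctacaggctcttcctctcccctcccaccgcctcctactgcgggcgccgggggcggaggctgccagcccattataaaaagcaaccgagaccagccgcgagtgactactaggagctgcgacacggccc
The interferon core was present in Cxcl9 and Cxcl10, that is in 2 of the 6 promoters, compared with 8.56% of 32851 promoters. The NF-κB consensus was present in Cxcl1, Cxcl2, Cxcl10 and Ccl20 (4 of 6, compared with 8.46%), and overlapping matches run together in the capitals. The gamma-activated site was in none of the 6 (8.3% of all promoters), which says only that these letters are not in these windows. Cxcl10 was the member with both kinds of motif, its interferon core lying 213 to 205 bases and its NF-κB matches 159 to 94 bases upstream of the start.

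In the mm10 coordinates of the count table, Cxcl9 (chr5:92321331-92328079), Cxcl10 (chr5:92346639-92348889) and Cxcl11 (chr5:92359545-92363296) lie next to each other on the minus strand, with 18559 and 10655 bases between them. Cxcl1 (chr5:90891245-90893115) and Cxcl2 (chr5:90903899-90905938) are 10783 bases apart on the plus strand of the same chromosome. Ccl2 (chr11:82035577-82037452) and Ccl7 (chr11:82045712-82047523) are 8259 bases apart, and Ccl5 (chr11:83525779-83530518), Ccl20 (chr1:83116766-83119167) and Cx3cl1 (chr8:94772180-94782426) stand alone. An exon of Cxcl10 overlaps an exon of Art3 on the opposite strand, and one of Cxcl11 overlaps the antisense gene Gm2673. Whether strand was used in counting is not given in the sources used here, so these values may include antisense reads. Art3 itself had at most 70 reads in any library.

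The libraries held 26657792 to 37168232 reads assigned to genes. Levels are given as CPM, the reads of a gene scaled to library size. All 9 β cell markers reached 1 CPM in every group. They summed to 23038 to 30289 CPM in Scr, 24883 to 26802 in Scr+Cy, 31993 to 34594 in ZIP, 29434 to 33423 in ZIP+Cy, 46908 to 50604 in OE and 29611 to 38606 in OE+Cy. In OE+Cy compared with OE, 5 of the 9 were called lower, as were 3 of 4 listed markers of other islet cells. The share of all genes called lower there was not computed, so these counts only describe the markers. Leukocyte markers (9 of 12 listed, with Cd3e and Adgre1 among those not listed) summed to 1.29 to 4.65 CPM, except in ZIP+Cy replicate 3 with 12.3 CPM. Fibroblast markers (7 of 7 listed) summed to 0.568 to 7.95 CPM, except in Scr replicate 1 (19.2 CPM), ZIP replicate 1 (54.8 CPM) and Scr+Cy replicate 1 (58.7 CPM). Scr+Cy replicate 1 also had 64.6 CPM of blood, nerve, muscle and fat markers (8 of 11 listed), against 3.57 to 22.1 CPM in the others. Endothelial markers (4 of 6 listed, Cdh5 and Kdr not) stayed between 0.202 and 5.11 CPM and markers of other islet cells (4 of 5 listed) between 9.09 and 369 CPM. Ductal and acinar markers (3 of 7 listed) summed to 12.4 to 24.2 CPM in the OE line and at most 1.14 CPM in the other lines. In OE and in OE+Cy, 1 of these 3 had a mean of at least 1 CPM. Between OE and Scr, 1 of the 3 was called higher and 1 lower in OE (23.8% of all genes in either direction). The part of these cells in the results was not tested, and in bulk samples fewer cells of a type and less RNA per cell cannot be told apart.

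The CXCR3 ligands Cxcl9 and Cxcl10 were the most abundant members after cytokines. Cxcl10 had 5, 79, 286 and 74 reads in Scr replicates 1 to 4 and 12493, 23525, 22816 and 18011 reads in Scr+Cy. In ZIP it had 2, 88, 114 and 927 reads, and in ZIP+Cy 16639, 26410, 29154 and 35233. In OE it had 11, 25, 29 and 57 reads, and in OE+Cy 41960, 39426, 51985 and 46973. No treated library overlapped an untreated one in any line, and the lowest untreated count was in replicate 1 of each line. Mean levels were 3.41 ± 3.82 CPM (SD, n = 4) in Scr, 9.49 ± 14.5 in ZIP and 0.920 ± 0.662 in OE, compared with 629.7 ± 203, 937 ± 258 and 1465 ± 128 in their treated counterparts. On the log2 scale, Cxcl10 rose by 7.56 ± 0.83 (SE, adjusted p = 1.65e-07) in Scr, by 6.61 ± 0.77 (4.07e-07) in ZIP and by 10.67 ± 0.97 (3.12e-09) in OE, which is 188.7-fold, 98.0-fold and 1625-fold. All adjusted p values are from edgeR's quasi-likelihood test with Benjamini-Hochberg adjustment over all 17696 genes.

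Cxcl9 followed the same order. It had 0, 16, 87 and 30 reads in Scr and 3067, 6901, 6411 and 6697 in Scr+Cy. It had 0, 27, 58 and 371 reads in ZIP and 5484, 11430, 16176 and 14566 in ZIP+Cy. In the OE line the counts went from 1, 4, 26 and 61 to 18453, 24791, 55884 and 38372. Replicate 1 was the lowest library in each of the 6 groups, and the treated and untreated groups did not overlap. The treated means were 188 ± 64.3 CPM (Scr+Cy), 419 ± 178 (ZIP+Cy) and 1103 ± 491 (OE+Cy). Cxcl9 rose by 7.57 ± 0.82 on the log2 scale in Scr (adjusted p = 1.48e-07), by 6.76 ± 0.73 in ZIP (1.24e-07) and by 10.66 ± 0.90 in OE (8.94e-10).

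Cxcl11 was far less abundant than the other CXCR3 ligands. It was at 0 in all untreated libraries but Scr replicate 3 (4 reads) and ZIP replicate 4 (3 reads). After cytokines Scr+Cy had 53, 89, 118 and 91 reads, ZIP+Cy 33, 91, 94 and 118, and OE+Cy 504, 450, 796 and 680. Each OE+Cy library exceeded each library of the other treated lines. In Scr it rose by 6.42 ± 0.65 on the log2 scale (adjusted p = 1.55e-07), in ZIP the ratio was 114-fold (95% counting interval 38.7 to 556), and in OE, where the untreated libraries held no read, it was at least 900.5-fold higher. These bounds set an absent group at 3 reads over its 4 libraries and take the reads of the other group as counted. The intervals cover counting error only, and the bounds cover only that of the absent group. GENCODE classes mouse Cxcl11 as a polymorphic pseudogene, a gene that codes for protein in some strains and not in others. The annotation also holds 1 protein-coding transcript of Cxcl11, of 1581 bases, whose length is used below for levels per kb.

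**Figure D1:**
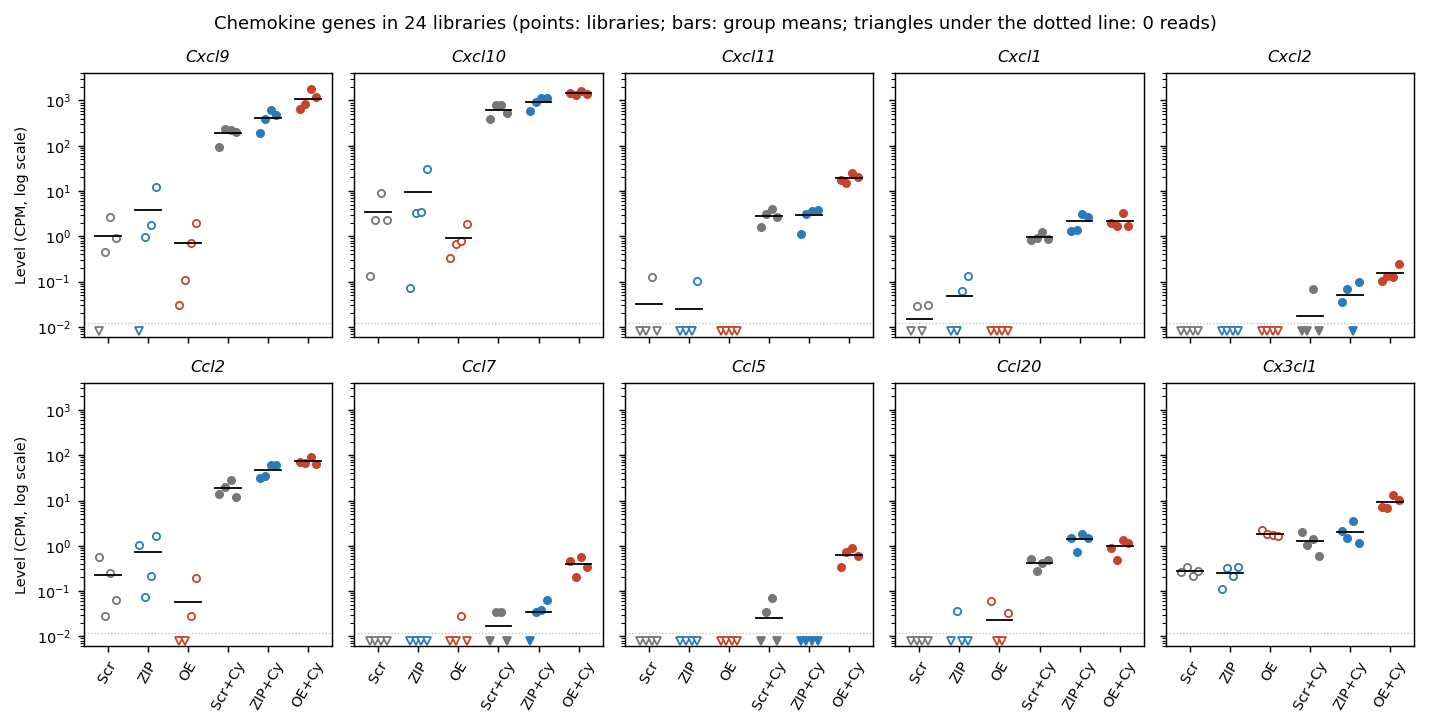
Level of each of the 10 members (CPM on a log scale) in the 24 libraries of 6 groups, with open symbols for untreated and filled symbols for treated libraries, black bars for group means and triangles for libraries with 0 reads. Cxcl9 and Cxcl10 reach means of 1103 and 1465 CPM in OE+Cy, whereas Cxcl2, Ccl5 and Ccl7 stay under 1 CPM throughout.

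The neutrophil-attracting pair behaved differently in level. Cxcl1 had 0 to 4 reads per untreated library and, among treated libraries, 27, 27, 36 and 29 reads (Scr+Cy), 38, 39, 81 and 85 (ZIP+Cy) and 58, 50, 102 and 57 (OE+Cy). The treated libraries were all above the untreated ones. Its ratio was 65.4-fold in Scr (95% counting interval 17.7 to 546), its fitted rise was 5.28 ± 0.56 on the log2 scale in ZIP (adjusted p = 2.99e-07), and it was at least 98.9-fold higher in OE. Cxcl2 was at 0 in all untreated libraries and had 2 reads over all of Scr+Cy, 6 over ZIP+Cy and 19 over OE+Cy (3, 4, 4 and 8 per library). For Cxcl2 the change was not detectable at this depth in Scr, and the test was not passed in ZIP (6 reads against 0, adjusted p = 0.0615). In OE, Cxcl2 was at least 7.04-fold higher (adjusted p = 0.00243).

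Among the monocyte-attracting genes, Ccl2 was the member next to Cxcl9 in abundance. It had 21, 1, 8 and 2 reads in Scr and 451, 592, 818 and 406 in Scr+Cy. It had 28, 2, 7 and 49 reads in ZIP and 894, 1002, 1590 and 1919 in ZIP+Cy. In OE it had 0, 0, 1 and 6 reads, and 2040, 1977, 2931 and 2152 in OE+Cy. Here too the treated and untreated groups did not overlap, and the means after cytokines were 18.6 ± 7.21 CPM, 47.2 ± 16.5 and 73.9 ± 12.6 in Scr+Cy, ZIP+Cy and OE+Cy. Ccl2 rose by 6.28 ± 0.52 on the log2 scale in Scr (adjusted p = 1.44e-09), by 5.99 ± 0.44 in ZIP (1.11e-10) and by 10.39 ± 0.61 in OE (9.36e-13). The untreated Ccl2 counts were highest in Scr replicate 1 and, in ZIP, in replicates 4 and 1. Scr replicate 1 and ZIP replicate 1 are the untreated libraries with 19.2 and 54.8 CPM of fibroblast markers, whereas ZIP replicate 4 had 3.83 CPM. Without Scr replicate 1, the log2 rise of Ccl2 in Scr was 7.33.

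Ccl7, the neighbour of Ccl2, was at the detection limit outside OE+Cy. It had at most 2 reads in any other library, and 13, 6, 18 and 11 reads in OE+Cy, a ratio to OE of 53.4-fold (95% counting interval 9.13 to 2151, adjusted p = 0.000114). Ccl5 showed the same distribution, with 0 reads in all untreated libraries and in all of ZIP+Cy, 3 reads in all of Scr+Cy, and 10, 21, 28 and 20 reads in OE+Cy. It was at least 29.3-fold higher in OE+Cy than in OE (adjusted p = 0.000126). In Scr and ZIP the totals of Ccl5 and, in Scr, of Ccl7 were at or under 3 reads in both groups, so that no fold is given.

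Ccl20 was low but present in all treated libraries. Scr+Cy had 17, 8, 12 and 16 reads, ZIP+Cy 42, 21, 48 and 46, and OE+Cy 26, 14, 43 and 37, against 0 to 2 reads in each untreated library. Ccl20 is thus the member whose highest mean was in ZIP+Cy (1.38 ± 0.468 CPM, compared with 0.965 ± 0.376 in OE+Cy and 0.423 ± 0.108 in Scr+Cy). It was at least 19.4-fold higher with cytokines in Scr (adjusted p = 9.35e-06), and the ratios were 160-fold in ZIP (95% counting interval 28.3 to 6355, adjusted p = 3.21e-07) and 44.5-fold in OE (14.9 to 219, adjusted p = 8.63e-07).

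Cx3cl1, the membrane-anchored member, had reads in every untreated library and the smallest fitted rise of the members with more than 3 reads in every group. It had 10, 12, 7 and 9 reads in Scr and 66, 31, 42 and 20 in Scr+Cy. In ZIP it went from 3, 9, 7 and 10 to 60, 44, 91 and 36 reads. In OE it already had 75, 66, 62 and 50 reads without cytokines, and it had 202, 204, 426 and 330 with them. Treated and untreated groups did not overlap within a line. The log2 rise was 2.19 ± 0.40 in Scr (adjusted p = 0.000283), 3.03 ± 0.41 in ZIP (3.77e-06) and 2.33 ± 0.31 in OE (1.05e-06), or 4.56-fold, 8.15-fold and 5.04-fold. In order of mean level, the groups were ZIP (0.248 ± 0.107 CPM), Scr (0.278 ± 0.0518), Scr+Cy (1.29 ± 0.605), OE (1.85 ± 0.284), ZIP+Cy (2.07 ± 1.02) and OE+Cy (9.35 ± 3.09), and the ranges of ZIP and Scr, of Scr+Cy and OE, of Scr+Cy and ZIP+Cy, and of OE and ZIP+Cy overlapped.

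A member was called when its fold change was at least 1.5 and its adjusted p under 0.05. With cytokines, 7 of the 10 members were called higher in Scr, where 5.96% of all genes were. The same 7 (Cxcl1, Cxcl9, Cxcl10, Cxcl11, Ccl2, Ccl20 and Cx3cl1) were called higher in ZIP (6.12% of all genes), and all 10 in OE (11.8%). The additional members in OE were Cxcl2, Ccl5 and Ccl7. Because the members were chosen with earlier results of these data known, a share above that of all genes is no independent evidence. The median log2 difference of the members was 5.99 in Scr, 5.63 in ZIP and 8.21 in OE as fitted, and 6.28, 5.99 and 6.18 with members of few reads set at their bound or ratio and those without a fold left out, compared with 0.0023, -0.0066 and 0.024 over all genes. These counts were the same when Scr replicate 1, ZIP replicate 1, Scr+Cy replicate 1 and ZIP+Cy replicate 3, the libraries with more markers of other cells, were left out together, although the log2 rise then became 7.44 for Ccl2 in Scr, and 6.11 for Cxcl9, 4.67 for Cxcl1 and 2.43 for Cx3cl1 in ZIP. Under edgeR's filterByExpr, which Cxcl2 and Ccl7 do not pass, 8 members were called in OE.

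**Figure D2:**
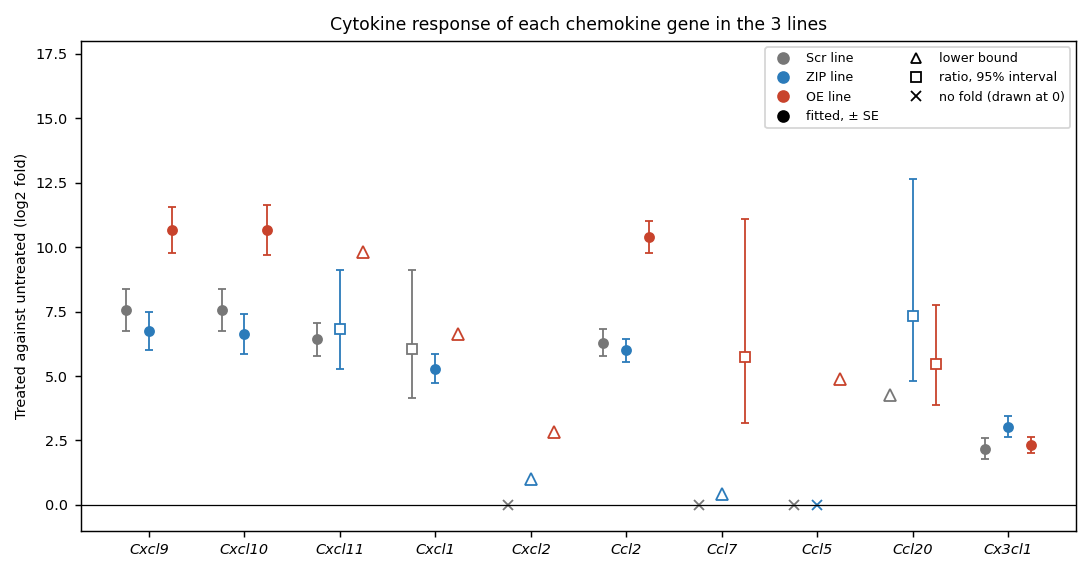
Log2 fold between treated and untreated libraries (vertical axis) for each member in the Scr, ZIP and OE lines, with fitted values ± SE as filled points, ratios with 95% counting intervals as squares, lower bounds as triangles and crosses at 0 where no fold is given. Cxcl9, Cxcl10 and Ccl2 lie at 10.66, 10.67 and 10.39 in OE, and Cx3cl1 lies between 2.19 and 3.03 in the 3 lines.

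The untreated levels of Cxcl9, Cxcl10, Cxcl11 and Ccl2 were compared with those of the treated libraries one by one. Expressed as a percentage of the treated library with the same line and replicate number, Cxcl10 was at 0.0351%, 0.280%, 1.14% and 0.424% in Scr replicates 1 to 4. In ZIP it was at 0.0126%, 0.352%, 0.316% and 2.74%, and in OE at 0.0228%, 0.0509%, 0.0487% and 0.131%. In ZIP replicate 4, Cxcl9 (2.65%), Cxcl11 (2.65%) and Ccl2 (2.66%) stood at almost the same percentage as Cxcl10, whereas Cxcl1, with 4 reads, was at 4.90% and Ccl20 had 0 reads. In Scr replicate 3, Cxcl9 was at 1.24%, Cxcl10 at 1.14% and Ccl2 at 0.891%, whereas Cxcl11, with 4 reads, was at 3.09%. In replicate 1 of Scr and ZIP, Ccl2 was at 4.08% and 3.28% while Cxcl10 was at 0.0351% and 0.0126%, which sets Ccl2 apart from the CXCR3 ligands in these libraries. Genes whose levels most resembled those of Cxcl9 and Cxcl10 were near this percentage in ZIP replicate 4, namely Ifi47 (2.58%), Tgtp2 (2.67%), Zbp1 (2.68%), Iigp1 (2.69%) and Gbp6 (2.89%). They were picked by resemblance over all 24 libraries, ZIP replicate 4 included, so they are no separate evidence. The genes most like Cxcl11 were at 2.80% (Batf2), 3.61% (Gbp4) and 3.72% (Oas3), and those most like Ccl2 at 3.62% to 4.14%. Those most like Cxcl1 were at 3.65% to 7.65%, and those most like Ccl20 and Cx3cl1 at 6.87% to 63.0%. Whether reads of treated libraries are present in ZIP replicate 4 or other untreated libraries was not tested. Every fold against untreated cells rests on these levels. Without ZIP replicate 4, the log2 rise in ZIP was 8.75 for Cxcl9, 8.66 for Cxcl10 and 6.78 for Ccl2, and in a fit of ZIP and ZIP+Cy with the replicate number as a block it was 7.36 for Cxcl10. Without Scr replicate 3, it was 8.72 for Cxcl9 and 8.69 for Cxcl10 in Scr, and without OE replicate 4 it was 11.86 for Cxcl9 in OE.

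**Figure D3:**
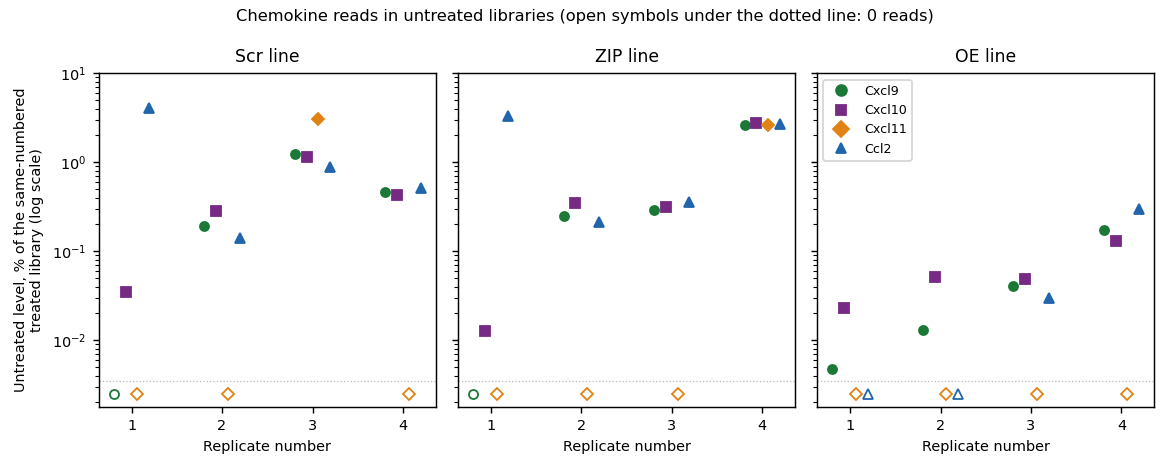
Level of Cxcl9, Cxcl10, Cxcl11 and Ccl2 in each untreated library as a percentage of the treated library of the same line and replicate number (log scale), with open symbols for 0 reads. The 4 genes coincide in ZIP replicate 4 (2.65% to 2.74%), and in replicate 1 of Scr and ZIP only Ccl2 lies above 1%.

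Without cytokines, the lines differed in Cx3cl1. The gene was 6.56-fold higher in OE than in Scr (log2 2.71 ± 0.39, adjusted p = 2.73e-06) and 7.36-fold higher in OE than in ZIP (2.88 ± 0.41, 2.11e-06), and the OE libraries overlapped neither group. Between OE and Scr, Cx3cl1 was the 1 member called, while 23.8% of all genes were called in either direction. Between ZIP and Scr, edgeR called 0 members (12.2% of all genes), 0 had an unadjusted p under 0.05, and DESeq2 called 0. Between OE and ZIP, 5 members were called (25.5% of all genes), Cx3cl1 higher and Cxcl1, Cxcl9, Cxcl10 and Ccl2 lower in OE, and for these 4 the libraries of the groups overlapped. Cxcl10 had a log2 difference of -3.41 ± 0.94 (adjusted p = 0.00382), Ccl2 of -3.74 ± 1.19 (0.0104) and Cxcl9 of -2.50 ± 1.03 (0.0441), and Cxcl1 had 0 reads in OE and 6 in ZIP (at least 2.34-fold lower, 0.0196). Without ZIP replicate 4, Cx3cl1 was the 1 member still called, and the differences were -1.37 for Cxcl10, -2.96 for Ccl2 and -0.51 for Cxcl9. The call for Cxcl9 was also lost without OE replicate 1, 2 or 3, ZIP+Cy replicate 2 or OE+Cy replicate 4 (adjusted p 0.0501 to 0.111) and with DESeq2, and its difference was -3.71 without OE replicate 4. In a blocked fit of these groups, Cxcl10 differed by -2.77.

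With cytokines, most members were highest in the OE line. In OE+Cy compared with Scr+Cy, 9 of 10 members were called higher (12.7% of all genes), and in 9 of 10 the libraries of the groups did not overlap. The share of all genes without overlap was not computed, so such counts only describe the members. Cx3cl1 was 7.27-fold higher (log2 2.86 ± 0.32, adjusted p = 5.42e-08), Cxcl11 6.86-fold (2.78 ± 0.33, 3.46e-07), Cxcl9 5.86-fold (2.55 ± 0.57, 0.000543) and Ccl2 3.98-fold (1.99 ± 0.30, 4.91e-06). For the members of few reads in Scr+Cy, the ratios were 26.6-fold for Ccl5 (95% counting interval 8.76 to 132), 24.2-fold for Ccl7 (6.35 to 206) and 9.58-fold for Cxcl2 (2.31 to 84.8). Cxcl1 was 2.24-fold higher (1.16 ± 0.39, adjusted p = 0.0168) and Ccl20 2.27-fold (1.18 ± 0.45, 0.0313), and Ccl20 was the member whose groups overlapped. The call for Ccl20 was lost without Scr+Cy replicate 2 or 3 or OE+Cy replicate 3 or 4 (adjusted p 0.0578 to 0.105), that for Cxcl1 without OE+Cy replicate 3 (0.0793), and that for Cxcl2 without Scr+Cy replicate 2 or 4 or OE+Cy replicate 4. Cxcl10 was 2.33-fold higher without overlap of the groups (1335 to 1642 CPM in OE+Cy, 385 to 810 CPM in Scr+Cy), but its adjusted p in the fit of all 24 libraries was 0.0898. In a fit of these groups alone, its log2 difference was 1.23 and its adjusted p 0.000302. With DESeq2, 7 members were called, Cxcl9 and Cxcl2 no longer among them.

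In ZIP+Cy compared with Scr+Cy, 3 of 10 members were called higher (5.89% of all genes), and these were the 3 without overlap (share of all genes not computed). Ccl20 was 3.23-fold higher (log2 1.69 ± 0.45, adjusted p = 0.00677), Ccl2 2.54-fold (1.34 ± 0.30, 0.00124) and Cxcl1 2.20-fold (1.14 ± 0.39, 0.0354). Cxcl9 (2.23-fold, 1.15 ± 0.54, 0.122), Cx3cl1 (1.60-fold, 0.67 ± 0.33, 0.134) and Cxcl10 (1.49-fold, 0.57 ± 0.59, 0.515) were not called, and Cxcl11 stood at 1.02-fold (0.03 ± 0.34, 0.965). The replicate numbers paired these libraries, and with the number as a block Cxcl9 was called as well in the model of all libraries (adjusted p = 0.0299), while in a blocked fit of the 2 groups 6 members were called, with Cxcl9 (2.44e-06), Cxcl10 (0.000802) and Cx3cl1 (0.0464) added. The call for Cxcl1 did not hold without Scr+Cy replicate 1, 2 or 4 or ZIP+Cy replicate 3 or 4 (adjusted p 0.065 to 0.13), nor without the 4 libraries with other-cell markers (0.112). DESeq2 called 2 members, Ccl2 not among them (0.193).

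In OE+Cy compared with ZIP+Cy, 8 members did not overlap (share of all genes not computed) and 5 were called higher (13.7% of all genes). These were Cxcl11 (6.70-fold, log2 2.74 ± 0.33, adjusted p = 3.88e-07), Cx3cl1 (4.55-fold, 2.19 ± 0.31, 1.75e-06), Ccl7 (10.2-fold, 3.35 ± 0.76, 0.0011), Ccl5 (79 reads against 0, at least 24.6-fold higher, 0.000126) and Cxcl9 (2.63-fold, 1.40 ± 0.55, 0.034). The call for Cxcl9 was lost without ZIP+Cy replicate 1, 2 or 4 or OE+Cy replicate 3 or 4 and with DESeq2. Cxcl10 (1.56-fold, adjusted p = 0.373), Ccl2 (1.57-fold, 0.0587) and Cxcl2 (2.83-fold, 0.154) had groups without overlap but were not called in the fit of all libraries. In a fit of these groups alone, Cxcl10 (0.00703) and Ccl2 (0.0195) were called. Cxcl1 (1.02-fold, 0.969) and Ccl20 (0.703-fold, 0.327) overlapped between OE+Cy and ZIP+Cy.

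**Figure D4:**
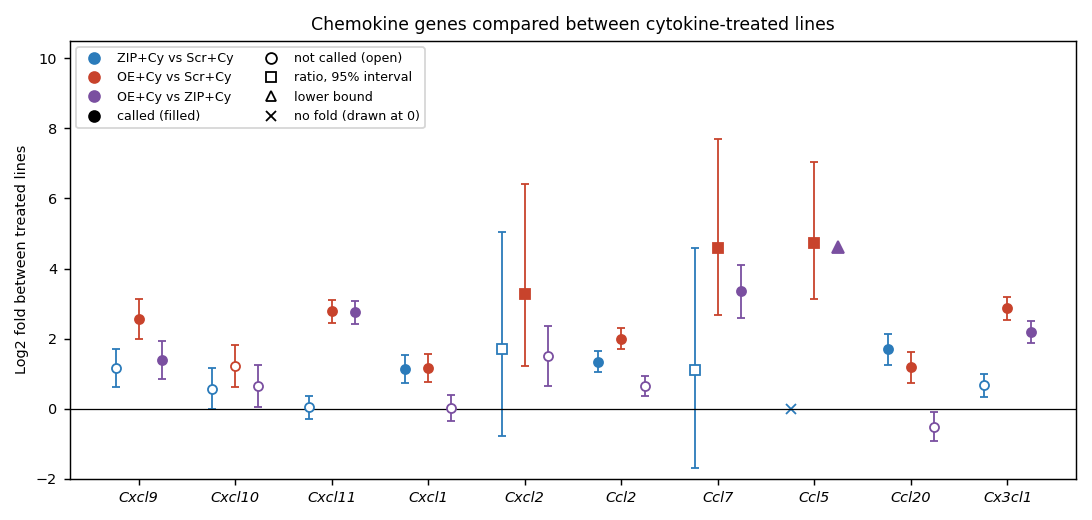
Log2 fold between cytokine-treated lines (vertical axis) for each member, with fitted values ± SE as circles, ratios with 95% counting intervals as squares, a lower bound as a triangle, filled where the member was called, and a cross at 0 where no fold is given. For OE+Cy against Scr+Cy all symbols but that of Cxcl10 are filled, whereas for ZIP+Cy against Scr+Cy they are filled for Cxcl1, Ccl2 and Ccl20.

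Whether the cytokine response itself differed between lines was tested as a difference of log2 changes, which is interpretable here for Cxcl9, Cxcl10, Ccl2 and Cx3cl1, the members with more than 3 reads in every group. Between ZIP and Scr, edgeR called 0 members (0.0565% of all genes), 0 had an unadjusted p under 0.05 and DESeq2 called 0. Between OE and ZIP, the response of OE was larger by 3.90 ± 1.15 for Cxcl9 (adjusted p = 0.0178, and 0.0974 with DESeq2), by 4.05 ± 1.12 for Cxcl10 (0.0121) and by 4.39 ± 1.20 for Ccl2 (0.011), so that 3 members were called, beside 20.6% of all genes. None of the 3 was called without ZIP replicate 4, where the differences were 1.91, 2.01 and 3.61. For Cxcl9 the difference was 5.11 without OE replicate 4. Ccl2 had 7 reads over OE, 6 of them in OE replicate 4, so no difference is given for Ccl2 without that library. Between OE and Scr, where 20.0% of all genes were called, edgeR called 0 members, although 4 had an unadjusted p under 0.05 and DESeq2 called 3. The differences were 4.10 ± 1.498 for Ccl2 (adjusted p = 0.0562), 3.11 ± 1.19 for Cxcl10 (0.0702) and 3.09 ± 1.40 for Cxcl9 (0.13). Without Scr replicate 3, these differences were 1.97 for Cxcl10 and 1.92 for Cxcl9, without Scr replicate 1 that for Ccl2 was 3.05, and without OE replicate 4 that for Cxcl9 was 4.30. With the replicate number as a block, Cxcl9, Cxcl10 and Ccl2 were called. Cxcl11 was also called there and was among the members counted with DESeq2 and at unadjusted p, but it had 0 reads in OE and 4 in Scr, so that its difference is not interpretable. The difference for Cx3cl1 was 0.15 ± 0.57 between OE and Scr (adjusted p = 0.916) and -0.69 ± 0.52 between OE and ZIP (0.386), so that its higher level in OE was present both with and without cytokines.

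The members also took different proportions in the treated lines. Per kb of transcript, which allows genes to be compared, Cxcl10 had the highest mean level in each treated group (465, 692 and 1083 CPM per kb in Scr+Cy, ZIP+Cy and OE+Cy), followed by Cxcl9 (65.2, 145 and 382) and Ccl2 (22.9, 58.0 and 90.9). Relative to Cxcl10 in the same library, Cxcl11 stood at 0.390% ± 0.0568 (SD, n = 4) for Scr+Cy, 0.257% ± 0.0586 for ZIP+Cy and 1.14% ± 0.161 for OE+Cy. Each of these 3 groups was separate from the others. Cxcl9 stood at 14.0% ± 2.50, 20.3% ± 4.35 and 34.7% ± 12.7 of Cxcl10, and Ccl2 at 4.98% ± 1.18, 8.35% ± 1.36 and 8.36% ± 0.744. Of 12 comparisons of such proportions, 7 were without overlap, and an exact two-sided permutation test of their log2 values gave p = 0.0286 for each, which is the smallest p that 4 against 4 libraries allow (0.049 after Benjamini-Hochberg adjustment over the 12). These were Cxcl11 in all 3 comparisons, Cxcl9 in OE+Cy against Scr+Cy, Ccl2 in both other lines against Scr+Cy, and Cx3cl1 in OE+Cy against ZIP+Cy. The comparisons of proportions were not among the planned tests. They took Cxcl9, Cxcl11, Ccl2 and Cx3cl1 only, so the adjustment covers no other member. The replicate numbers pair ZIP+Cy with Scr+Cy, and within the 4 pairs Cxcl9 and Ccl2 relative to Cxcl10 were higher in ZIP+Cy in 4 of 4 and Cxcl11 was lower in 4 of 4, each with an exact sign-flip p of 0.125, the smallest that 4 pairs allow. Cx3cl1 was higher in 2 of 4 (p = 0.75 in the same exact test). Ccl2 relative to Cxcl10 did not differ detectably between OE+Cy and ZIP+Cy (log2 difference 0.014, exact p = 0.943). Cx3cl1 relative to Cxcl10 was at 0.257% ± 0.0649 in OE+Cy and 0.0975% ± 0.0798 in Scr+Cy (exact p = 0.0857, adjusted 0.103), where Scr+Cy replicate 1 was highest at 0.216%.

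**Figure D5:**
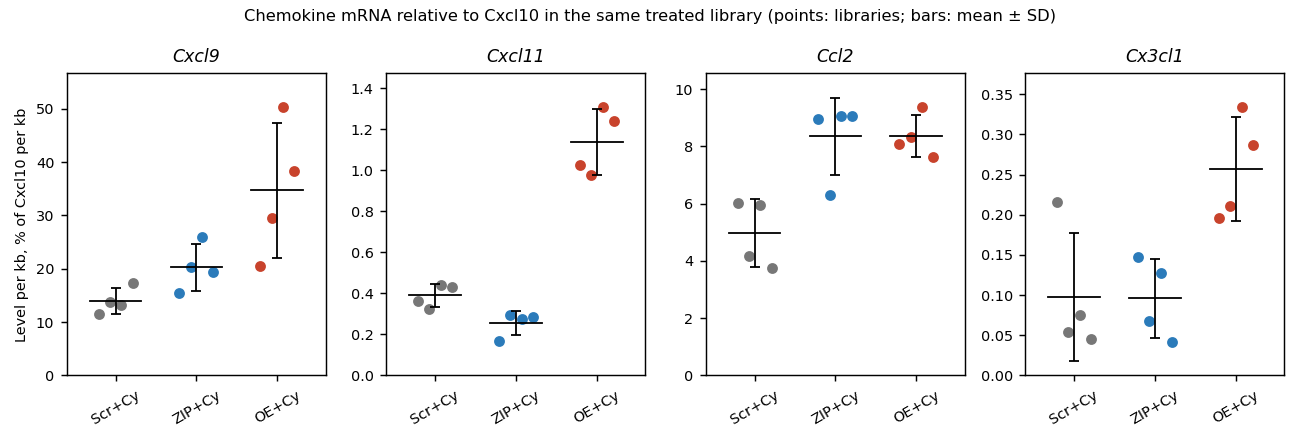
Level per kb of Cxcl9, Cxcl11, Ccl2 and Cx3cl1 as a percentage of Cxcl10 per kb in the same treated library (linear vertical axes, each with its own scale), with points for the 4 libraries of a group and black bars for the mean ± SD. Cxcl11 lies at 0.977% or above in OE+Cy and at 0.443% or below in the other lines, and Ccl2 lies lower in Scr+Cy than in both other lines.

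Genes of interferon and cytokine signalling were also followed. Irf1, a transcription factor of the IFNγ response, went from 28.3 to 412 CPM in Scr, from 29.8 to 401 in ZIP and from 20.6 to 729.5 in OE, and was called higher with cytokines in each line. Stat3, a transcription factor downstream of several cytokine receptors, went from 107 to 395, from 116 to 339 and from 113 to 471 CPM and was likewise called in each line. Between OE+Cy and Scr+Cy, Irf1 (log2 0.83), Irf8 (3.85) and Socs1 (1.59) were called higher, the latter 2 named after their values were seen.

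Of 12 NF-κB subunits and inhibitors, 9 were called higher with cytokines in Scr (5.96% of all genes), 10 in ZIP (6.12%) and 12 in OE (11.8%). Nfkbia, the inhibitor IκBα and itself an NF-κB target, went from 17.0 to 129.6 CPM in Scr, from 17.4 to 145 in ZIP and from 20.5 to 195 in OE. Nfkb1 went from 53.0 to 99.0 CPM in Scr and from 54.4 to 123 in OE, and Nfkb2 from 11.99 to 131 and from 24.2 to 128. In OE+Cy compared with Scr+Cy, 6 of the 12 were called higher (12.7% of all genes). Nfkbia was among them with a log2 difference of 0.59, which fell under the fold limit without Scr+Cy replicate 4 (0.47) or OE+Cy replicate 4 (0.58). In ZIP+Cy compared with Scr+Cy, Nfkbiz was the 1 gene called (0.64; 5.89% of all genes), a name given after its values were seen, and it fell under the fold limit without Scr+Cy replicate 2 or 4 or ZIP+Cy replicate 1 (0.55 to 0.58).

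Of 15 receptors and kinases of the 3 cytokines, 7 were called higher in Scr, 5 in ZIP and 9 in OE, beside the 5.96%, 6.12% and 11.8% of all genes. The IL-1 receptor gene Il1r1, the most abundant of them, was at 660.2 CPM in Scr and 872 in Scr+Cy, at 728 in ZIP and 884 in ZIP+Cy, and at 1048 in OE and 830.3 in OE+Cy, and neither it nor Jak1 nor Irak1 was called in any of the 3 cytokine comparisons. Of 9 factors that act on the decay of chemokine mRNA, 1 was called higher in Scr and 2 each in ZIP and OE, beside the same shares of all genes. Hnrnpd, Khsrp and Elavl1, the most abundant, were called in none. The gene called in all lines was Zc3h12a, which encodes the endoribonuclease Regnase-1 and is named after its values were seen, with log2 differences of 3.38 in Scr, 4.57 in ZIP and 6.14 in OE. Of 4 genes around the shedding of CX3CL1, 1 was called higher in Scr and 2 each in ZIP and OE, with the same shares over all genes. Adam10 (0.61) was called in OE and Adam17 (0.66) in ZIP, though under the fold limit without OE+Cy replicate 3 (0.56) and ZIP+Cy replicate 3 (0.58), and Rhbdf2, which encodes a partner of ADAM17, in all lines (2.15, 2.52 and 2.93).

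Of 28 other chemokine ligands, 12 were listed, and 2 of these were called higher with cytokines in Scr (5.96% of all genes) and in ZIP (6.12%) and 5 in OE (11.8%). Cxcl12, the ligand of CXCR4, rose by 1.38 and 1.54 on the log2 scale in Scr and ZIP, the call in Scr being lost without Scr replicate 2 (1.22, adjusted p = 0.0688). In OE+Cy it had 1841, 635, 313 and 372 reads in replicates 1 to 4, and its groups overlapped. The log2 difference from OE was 1.42, and 0.52 without OE+Cy replicate 1 (adjusted p = 0.115). Ccl27a was called in none of these comparisons. Ccl28, an epithelial chemokine, had means of 0.912 CPM in Scr+Cy and 1.24 in ZIP+Cy but 29.6 in OE+Cy, from 1.76 in OE (log2 4.07). The others called were Cxcl16 in all 3 lines and Ccl3 and Ccl8 in OE, which were named after their values were seen. The call for Cxcl16 in Scr (adjusted p 0.0501 to 0.205) did not hold when any of Scr replicate 3, ZIP replicates 1 to 3, OE replicates 2 to 4, Scr+Cy replicates 3 and 4, ZIP+Cy replicates 1 and 2 or OE+Cy replicate 2 was left out. Of 23 chemokine receptors, 13 were listed. Ccrl2, an atypical receptor that binds chemerin, was called higher in each line, with log2 differences of 5.34, 4.84 and 5.85, and Ccr10 was called in Scr (0.63, and 0.47 without Scr+Cy replicate 1, adjusted p = 0.0908), while Cxcr4 was not called in any of the 3. Ccr7, named after its values were seen, was called lower with cytokines in OE (log2 -1.86), a call lost without OE replicate 1 or 3 or OE+Cy replicate 2, 3 or 4 (adjusted p 0.055 to 0.0823).

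The genes whose log2 CPM over the 24 libraries was most like that of a member were looked for among 12665 other genes with a mean of at least 1 CPM, as a description only, since treated and untreated libraries form separate clusters. For Cxcl9 they were Gbp6, Ifi47 and Tgtp2 (Pearson r 0.994 to 0.997), for Cxcl10 Ifi47, Iigp1 and Zbp1 (0.995 to 0.996) and for Cxcl11 Gbp4, Batf2 and Oas3 (0.989 to 0.992). For Ccl2 they were Xaf1, Isg15 and Sp100 (0.974 to 0.983), for Cxcl1 Gm16685, AW112010 and Csf1 (0.987 to 0.994) and for Ccl20 Znrf1, Tmem176b and Tnip1 (0.961 to 0.965). For Cx3cl1, which alone among these members was raised in untreated OE cells, they were Usp43, Tfe3 and Tec (0.957 to 0.963).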

How the data were processed

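Gene-level values of 24 bulk RNA-seq libraries of MIN6 lines were used, in 6 groups of 4 taken from each library's own labels. The submitters' processing notes name FastQC, STAR 2.7.8a, Partek 11.0.24.0204, DESeq2 and mm10, whereas the paper's methods give other versions of STAR and Partek. The values used are estimated counts, as deposited by the authors and not normalized. Of these, 30.3% were not whole, and all were rounded. The deposited size-factor-normalized values were not used. Every listed gene had at least 10 reads in total.

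Counts were fitted with edgeR 4.0.16 in R 4.3.3 (TMM, glmQLFit and glmQLFTest, 1 model of 6 group means), and p values were adjusted over 17696 genes. The test was run on simulated data beforehand. Calls needed a fold change of at least 1.5 and adjusted p under 0.05, and differences of responses adjusted p under 0.05. Members and gene lists were chosen with earlier results of these data known. The text names all members, the 3 most abundant genes of each other list, and for each member that reached 1 CPM in a group the 3 genes most like it. Some results that this rule covers are not reported here. Groups with a total of 3 reads or fewer were given ratios with exact counting intervals or lower bounds. Levels are CPM after TMM scaling, and log2 CPM used a prior count of 2. Promoters, the microRNA and untranslated regions came from RefSeq and GENCODE tables of GRCm38. Percentages of a treated library were computed where it had at least 30 reads.

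Replicate numbers paired libraries where every same-numbered pair deviated together over 12670 genes (correlation over 0.1). This held for cytokine effects in each line (lowest 0.413, 0.261 and 0.162 in Scr, ZIP and OE), ZIP against Scr, OE against ZIP, and ZIP+Cy against Scr+Cy (0.191), and not for OE against Scr, OE+Cy against Scr+Cy and OE+Cy against ZIP+Cy. The labels share the numbers, each with its own code, without saying what the numbers or codes mark. Alternatives were DESeq2 1.42.0, its size factors, filterByExpr, fits of the compared groups only, the replicate block, other call rules and leaving out libraries.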

Additional observations from a re-analysis of the deposited data

Results flagged for a closer look

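Of 40 levels of a member in a group with more than 3 reads, 4 had a library whose gap to the next exceeded Dixon's limit for 4 samples. Chance gives this in about 1 of 20 for normally distributed values, which levels of few reads are not, so the flags only describe the libraries. In ZIP replicate 4, Cxcl9 stood at 12.5 CPM (0 to 1.80 in the other ZIP libraries) and Cxcl10 at 31.1 CPM (0.0732 to 3.53). In Scr replicate 3, Cxcl11 stood at 0.125 CPM, with 0 reads in the other Scr libraries, a case in which any level exceeds the limit. In OE replicate 4, Ccl2 stood at 0.196 CPM (0 to 0.0276 in the other OE libraries).

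The cytokine response was larger in OE than in ZIP for Cxcl9 (log2 3.90), Cxcl10 (4.05) and Ccl2 (4.39) by the interaction test of edgeR. Without ZIP replicate 4 these differences were 1.91, 2.01 and 3.61, with adjusted p values of 0.314, 0.145 and 0.062. For Ccl2 no difference is given without OE replicate 4, which held 6 of its 7 reads in OE.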

How the results depend on the processing

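The 12 counts of members called were recomputed 393 times, and 363 values were within 1.5 times the count reported. The cytokine comparisons of the 3 lines, OE+Cy against Scr+Cy and against ZIP+Cy, and ZIP against Scr responses stayed within that range under all alternatives tried. For OE against Scr, where 1 was called, 2 were called with the replicate block in a fit of the groups compared, at unadjusted p, and without the 4 libraries with other-cell markers, an alternative added after seeing the data. For OE against ZIP (5), 3 were called in a fit of the groups compared. For ZIP+Cy against Scr+Cy (3), 6 were called with the block in that fit. For the OE minus Scr response (0), the counts were 3 with DESeq2, 1 with filterByExpr, 2 in the fit of the groups compared, 4 with the replicate block in both fits and at unadjusted p, and 1 without the 4 libraries. For the OE minus ZIP response (3), DESeq2 and unadjusted p gave 5, those of DESeq2 being Cxcl1, Cxcl10, Cxcl11, Ccl2 and Ccl5 without Cxcl9 (adjusted p = 0.0974). Leaving out each library in turn gave 0 to 1 for ZIP against Scr, 1 to 2 for OE against Scr, 1 to 5 for OE against ZIP, 0 to 2 for the OE minus Scr response and 0 to 4 for the OE minus ZIP response. The block ended the call of Cxcl1 for OE against ZIP in the fit of these groups and changed no other call of the paired comparisons beyond those given here and above. For pairs of groups that share only a number, the block added Cxcl10 in OE+Cy against Scr+Cy and Ccl2 in OE+Cy against ZIP+Cy. Cxcl2 left the calls of OE+Cy against Scr+Cy in the blocked fit of these groups, and Cxcl10 entered those of OE+Cy against ZIP+Cy. The cause of these changes was not tested.

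Of 1877 recomputed log2 differences of members, 1775 kept direction and side of the threshold and 19 changed sign, none of them a member called in that comparison. Without the 4 libraries, the larger OE than ZIP response of Cxcl9 was 4.56. Leaving out 1 library gave -0.026 to 3.13 for Cxcl9, -0.52 to 2.66 for Cxcl10 and -0.35 to 0.064 for Cx3cl1 in ZIP against Scr, and -1.75 to 0.64 for Cxcl9 in OE against Scr. It gave -0.16 to 0.31 for Cxcl11 in ZIP+Cy against Scr+Cy and -0.23 to 0.26 for Cxcl1 in OE+Cy against ZIP+Cy. For the ZIP minus Scr response it gave -1.96 to 1.18 (Cxcl9), -2.07 to 1.09 (Cxcl10) and -1.34 to 0.49 (Ccl2), and for the OE minus Scr response -0.10 to 0.47 (Cx3cl1). Without the 4 libraries, Cx3cl1 was at 0.047 in ZIP against Scr and Cxcl11 at -0.26 in ZIP+Cy against Scr+Cy. Depth limits Cxcl2, Ccl5 and Ccl7, whose untreated totals of 0 over 4 libraries allow up to 0.0220 CPM in Scr and 0.0257 CPM in ZIP. Genes of the other lists were refitted without each library, and member proportions compared within pairs, as alternatives added after seeing the data.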
